A study of Mus musculus with 35 samples.

Results

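The genes described here are 44 genes that dividing cells switch on to copy their DNA and to separate it, followed by bulk RNA sequencing in mouse skin after a single dose of radiation. They were listed by symbol, and no measured value entered the rule, although the list was drawn up with earlier results of these data known. All 44 were found among the 36106 genes measured and all passed the filter on low counts in every comparison. They were read by role. The mitosis genes, 23 in number, include the proliferation markers Mki67 and Top2a, the cyclins and kinases of mitotic entry, the spindle checkpoint, the kinetochore and the mitotic kinesins. The replication fork genes, 10 in number, are Mcm2 to Mcm7, Mcm10, Cdc45, Gins1 and Gins2. A further 7 genes (Cdc6, Cdt1, Pcna, Rrm1, Rrm2, Tyms and Dna2) license origins, supply nucleotides or process DNA. The remaining 4 (Ccne1, Ccne2, E2f1 and Brca1) act at the entry into S phase or in DNA repair.

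The mice were 10-week-old C57BL/6J females, an inbred laboratory strain, and the series names 19 of them in 5 groups. In the 4 radiated groups, the skin of the left flank received 25 Gy over 420 seconds (3.6 Gy per min), and the treated skin was shaved afterwards. Each of weeks 1, 2, 3 and 4 has 4 radiated and 4 control libraries, and the sham group, which had no radiation, has 3. Since 35 libraries came from 19 mice, radiated and control libraries that share a week and a number were assigned to 1 mouse, so the control skin would belong to a mouse that was radiated elsewhere. The main fits did not use this pairing, which entered only as a replicate block in alternative fits. The protocol describes biopsies of radiated skin only, and leaves unstated where the control skin came from and whether control and sham skin was shaved. Each week was a different set of mice, so that every comparison between weeks is also one between mice. Nothing in the labels speaks of separate litters or experiments, so p-values measure the spread between these samples only.

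Before S phase, a ring of Mcm2 to Mcm7 is loaded onto origins of replication by ORC, Cdc6 and Cdt1. When Cdc45 and the GINS complex join that ring, it becomes the helicase that unwinds DNA at the fork. Genes for these steps are known targets of the E2F transcription factors at the entry into S phase, while most mitosis genes peak later, in G2 and M, through the MuvB complexes with B-Myb and FoxM1. In skin, dividing cells are found mainly in the basal layer of the epidermis and in the matrix of growing hair follicles, and radiation is known to hold back division through p53 and its target Cdkn1a. Ki-67 and cyclin A2 are also present outside mitosis, so the role names are labels of convenience.

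The promoters of 5 members are shown, 3 of mitosis genes and 2 of fork genes, because they carry the letters by which these classes of genes are known to differ. They are RefSeq sequences on GRCm38.p6, 200 bases long, read 5′ to 3′ on the strand of the gene up to its start. Capitals mark, on either strand, the G2/M element TTTGAA and its variant TTCGAA, the NF-Y box CCAAT, the E2F elements TTTCCCGC, TTTGGCGC, TTTCGCGC and TTTGCCGC, and the shorter E2F cores GCGGGAA and GGCGGGA. The sequences lie at chr7:135716380-135716579 (minus strand), chr4:118437344-118437543 (minus), chr10:69352913-69353112 (minus), chr8:75109309-75109508 (plus) and chr1:128359706-128359905 (minus).
Mki67: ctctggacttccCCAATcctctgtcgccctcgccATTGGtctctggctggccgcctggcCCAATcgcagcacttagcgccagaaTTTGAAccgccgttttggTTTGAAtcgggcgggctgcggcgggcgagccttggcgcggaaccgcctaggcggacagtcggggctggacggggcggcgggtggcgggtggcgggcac
Cdc20: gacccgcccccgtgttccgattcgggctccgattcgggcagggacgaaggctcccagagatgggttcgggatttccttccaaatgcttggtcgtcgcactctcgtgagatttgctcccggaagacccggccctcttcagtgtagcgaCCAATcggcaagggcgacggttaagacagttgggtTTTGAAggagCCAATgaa
Cdk1: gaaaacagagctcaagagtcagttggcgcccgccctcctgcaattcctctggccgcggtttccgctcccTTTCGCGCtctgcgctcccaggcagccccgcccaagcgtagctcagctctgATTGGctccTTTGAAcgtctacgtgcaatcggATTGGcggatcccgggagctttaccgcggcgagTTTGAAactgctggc
Mcm5: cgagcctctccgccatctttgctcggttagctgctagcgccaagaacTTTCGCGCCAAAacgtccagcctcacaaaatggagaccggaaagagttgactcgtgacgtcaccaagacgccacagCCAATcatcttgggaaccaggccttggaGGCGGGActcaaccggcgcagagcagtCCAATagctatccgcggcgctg
Mcm6: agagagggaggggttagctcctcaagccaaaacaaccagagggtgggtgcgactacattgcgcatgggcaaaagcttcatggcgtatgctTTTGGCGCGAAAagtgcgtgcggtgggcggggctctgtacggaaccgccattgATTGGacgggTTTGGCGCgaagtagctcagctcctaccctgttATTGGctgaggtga
The Mki67 and Cdk1 stretches each hold 2 copies of TTTGAA and Cdc20 holds 1, whereas Mcm5 and Mcm6 hold 0. Mcm5 holds 2 long E2F elements and Mcm6 holds 3, in each case with 1 pair that overlaps and reads as a single run of capitals. Windows of 300 bases, 250 before the start and 50 after it, were given for 36 of the 44 genes, and none was given for Aurkb, Ccna2, Ccne2, Gins1, Gins2, Kif20a, Mcm4 and Tpx2. TTTGAA was present in 14 of 19 mitosis windows (73.7%), in 2 of 7 fork windows (28.6%) and in 20.2% of the windows of 27025 genes. With TTCGAA counted too, the numbers were 15 of 19 (78.9%), 3 of 7 (42.9%) and 21.7%. Any of the 4 long E2F elements was present in 4 of 7 fork windows (57.1%), in 1 of 19 mitosis windows, that of Cdk1, and in 2.6% of all windows. With the shorter cores counted too, an E2F element or core was present in 4 of 7 fork windows, 6 of 19 mitosis windows (31.6%) and 15.9% of all windows. CCAAT was found in 17 of 19 mitosis windows, 7 of 7 fork windows and 41.1% of all windows. Neither TTTGAA nor TTCGAA was found in the 7 windows of licensing, nucleotide and processing genes. A match in a window is a description of its letters and was not tested as a binding site.

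Library totals ran from 17362853 to 28487885 estimated counts, and 3 counts, taken as the detection floor, correspond to 0.114 to 0.175 CPM (counts divided by the library's TMM-scaled total and multiplied by 1000000). No member was at 0 in any library, and the lowest single count was 13, for Bub1. Keratin and other basal keratinocyte markers summed to between 6402 and 18175 CPM in every library, so all libraries held epidermis, and skeletal muscle markers summed to between 879 and 43141 CPM, so the biopsies contained muscle in amounts that differed between groups. Hair matrix, shaft and inner root sheath markers summed to between 2306 and 35084 CPM in sham skin and to between 27.4 and 7126 CPM in the other groups, and none of the 14 was at 0 counts in all libraries of any group. Control week 2 replicate 1 stood apart in the genes described here, and results that rest on it are given with and without it. In bulk tissue, fewer dividing cells and less RNA per dividing cell cannot be told apart. The part that these marker levels play in the results was not tested.

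The first comparison set radiated against control skin within each week and asked when radiation changed these genes. In weeks 1 and 2 none of the 44 passed the test, and in weeks 3 and 4 most were higher in radiated skin. The test throughout was edgeR's quasi-likelihood F test with Benjamini-Hochberg adjustment over all genes tested, and a gene was called at an adjusted p under 0.05. Week 3 had 25 members higher and 0 lower, against 13.6% of all genes called higher and 13.6% called lower. Week 4 had 34 higher and 1 lower, against 24.2% of all genes called higher and 24.2% called lower. The median log2 fold change over the members was 0.96 in week 3 and 0.99 in week 4, beside 0.08 and 0.02 over all genes tested. By role, the genes called higher in week 3 were 11 of 23 mitosis genes, 7 of 10 fork genes, 5 of 7 licensing, nucleotide and processing genes and 2 of 4 genes of S phase entry and repair. In week 4 they were 16 of 23, 8 of 10, 7 of 7 and 3 of 4. In fits with a replicate block, which compare libraries of the same number and so of the mouse they were assigned to, 27 and 34 were higher. Over all genes the block called 1769 of 17653 higher in week 3 and 3819 of 17850 in week 4. The 5 licensing, nucleotide and processing genes of week 3 became 3 with it. Without control week 3 replicate 1 the week 3 count fell to 15, and it was also 15 without control week 3 replicate 3. In these fits 17.9% and 21% of all genes were called in either direction, against 27.2% with all libraries.

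**Figure D1:**
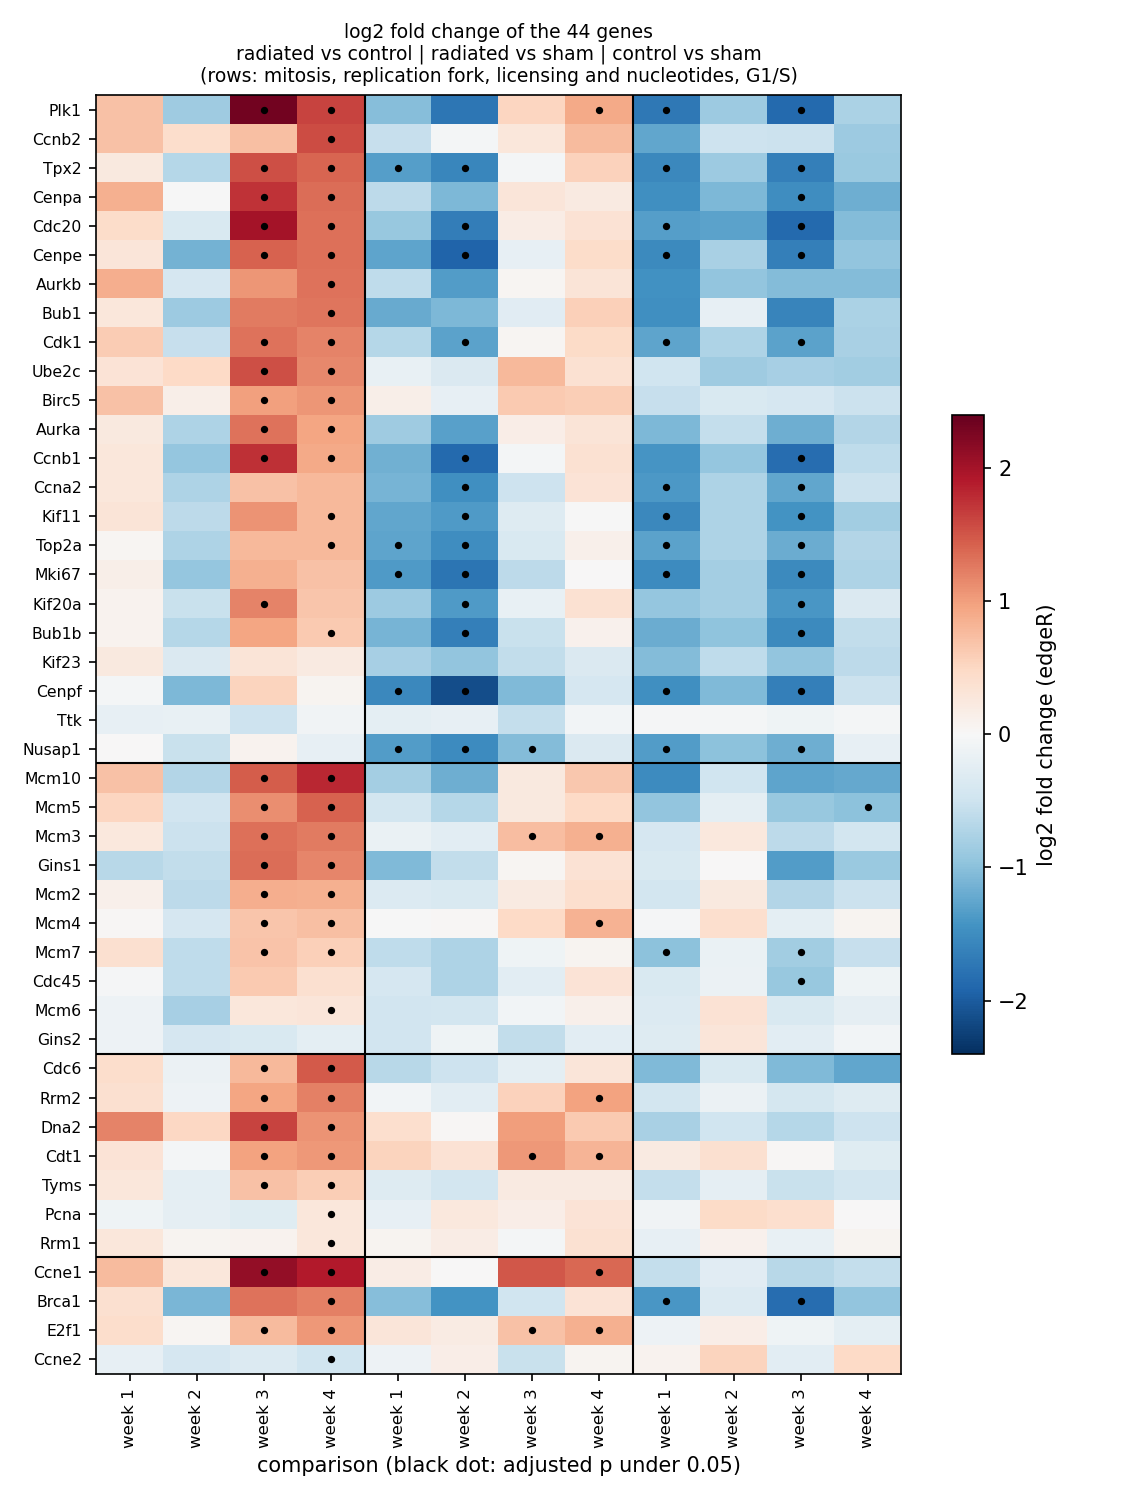
Log2 fold change of each of the 44 genes (vertical axis, by role) in 12 comparisons (horizontal axis): radiated against control skin, radiated against sham and control against sham, each at weeks 1 to 4. Dots mark an adjusted p under 0.05. The columns of radiated against control skin at weeks 3 and 4 carry 25 and 35 dots, and those of weeks 1 and 2 carry 0.

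Mki67, which encodes the proliferation antigen Ki-67 (ENSMUSG00000031004, chromosome 7, 135689784 to 135716361 on GRCm38), was measured at 216, 175 and 344 CPM in the 3 sham libraries. Radiated skin had 105, 92.1, 102 and 83.7 CPM in week 1 and 74.2, 76.2, 74.8 and 67.3 CPM in week 2. It had 100.2, 149.8, 135 and 224 CPM in week 3 and 224, 237, 278 and 210.0 CPM in week 4. Radiated skin was thus below every sham library in weeks 1 and 2 and back within the sham range in week 4. Control skin had 120.2, 65.8, 77.6 and 83.7 CPM in week 1 and 402, 64.7, 57.2 and 35.1 CPM in week 2, where replicate 1 alone was above all sham libraries. It had 45.6, 93.0, 69.6 and 136 CPM in week 3 and 226, 186, 96.5 and 81.3 CPM in week 4. Radiated and control values overlapped in both weeks, although radiated skin was higher in 4 of 4 same-numbered pairs in week 3 and in 3 of 4 in week 4. The log2 fold change was 0.84 ± 0.34 (SE) in week 3 (adjusted p = 0.0912) and 0.70 ± 0.29 in week 4 (adjusted p = 0.0752), and with the replicate block the adjusted p was 0.0111 and 0.0495.

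Top2a, the topoisomerase that untangles sister chromatids (ENSMUSG00000020914, chromosome 11, 98992943 to 99024189), followed the same course. Sham skin had 192, 155 and 309.6 CPM. Radiated skin had 91.3, 98.0, 96.6 and 83.3 CPM in week 1, 62.6, 80.1, 84.2 and 86.0 CPM in week 2, 108, 171, 145 and 234 CPM in week 3 and 221, 226, 264 and 212 CPM in week 4. The radiated libraries of week 4 sat close together, above 2 of the 3 sham libraries. Control skin had 103, 79.4, 89.0 and 89.3 CPM in week 1, 317, 84.5, 77.5 and 46.7 CPM in week 2, 60.9, 107, 80.9 and 141 CPM in week 3 and 197, 167, 99.5 and 81.7 CPM in week 4. Groups overlapped in week 3 and did not in week 4. The log2 fold change was 0.78 ± 0.29 (SE) in week 3 (adjusted p = 0.0764, or 0.011 with the replicate block) and 0.77 ± 0.25 in week 4 (adjusted p = 0.0275).

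Cdc20 (ENSMUSG00000006398, chromosome 4, 118432901 to 118437352) encodes the activator of the anaphase-promoting complex. Sham skin had 25.1, 17.0 and 35.0 CPM. In radiated skin Cdc20 was at 10.4, 15.7, 18.8 and 10.7 CPM in week 1, 7.74, 7.54, 7.54 and 9.81 CPM in week 2, 16.1, 20.4, 38.2 and 37.1 CPM in week 3 and 24.2, 31.3, 44.7 and 26.1 CPM in week 4. In control skin it was at 12.9, 6.79, 9.97 and 11.5 CPM in week 1, 29.0, 5.29, 4.37 and 3.65 CPM in week 2, 3.33, 7.66, 8.23 and 9.42 CPM in week 3 and 17.6, 13.9, 12.0 and 7.27 CPM in week 4. Every radiated library of weeks 3 and 4 was above every control library of its week. The log2 fold change was 1.99 ± 0.38 (SE) in week 3 (adjusted p = 0.00568) and 1.33 ± 0.27 in week 4 (adjusted p = 0.00285). Plk1, the kinase of centrosome maturation and mitotic entry, had the largest week 3 difference of the members, 2.32 ± 0.50 (adjusted p = 0.00934), and was at 1.61 ± 0.29 in week 4 (adjusted p = 0.00137). Ube2c, the ubiquitin-conjugating enzyme of the anaphase-promoting complex, was higher by 1.54 ± 0.41 and 1.15 ± 0.26.

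Cenpa, the histone H3 variant that marks the centromere, had 17.9, 29.5, 26.2 and 39.5 CPM in radiated skin of week 3 against 6.66, 7.29, 13.7 and 6.62 CPM in control skin. In week 4 it had 25.5, 23.7, 27.1 and 31.2 CPM against 14.8, 10.1, 8.88 and 9.07 CPM. The groups did not overlap in either week, and the log2 fold changes were 1.74 ± 0.31 (SE, adjusted p = 0.00437) and 1.34 ± 0.18 (adjusted p = 0.000204). Over the other 19 libraries Cenpa ranged from 5.54 to 33.8 CPM. Birc5, or survivin, a subunit of the chromosomal passenger complex, had 14.0, 14.6, 12.6 and 19.7 CPM in radiated and 10.1, 5.28, 9.16 and 6.97 CPM in control skin of week 3. In week 4 it had 12.8, 14.3, 15.0 and 17.9 CPM against 9.00, 6.46, 6.75 and 6.73 CPM. These groups were separate too, with log2 fold changes of 0.98 ± 0.24 (adjusted p = 0.0162) and 1.06 ± 0.16 (adjusted p = 0.00039). Birc5 ranged from 4.60 to 15.3 CPM in the other 19 libraries.

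The remaining mitosis genes did not move as one. Cdk1, the kinase that drives mitosis, was higher by 1.30 ± 0.26 (SE, log2) in week 3 and 1.18 ± 0.25 in week 4, and its partner Ccnb1 (cyclin B1) by 1.75 ± 0.35 and 0.91 ± 0.22. Ccnb2 (cyclin B2) was called in week 4 alone, at 1.57 ± 0.30 (adjusted p = 0.00192), and had 0.73 ± 0.36 in week 3 (adjusted p = 0.159). Tpx2, which nucleates spindle microtubules, and the kinetochore motor Cenpe were higher in both weeks, Tpx2 by 1.55 ± 0.33 and 1.39 ± 0.25 and Cenpe by 1.41 ± 0.40 and 1.33 ± 0.25. There were 4 mitosis genes called in neither week, with or without the block. Nusap1, a microtubule-bundling protein, was at 0.09 ± 0.28 and -0.19 ± 0.25. Cenpf, a large kinetochore protein, was at 0.54 ± 0.38 and 0.06 ± 0.23, and the kinesin Kif23 at 0.30 ± 0.25 and 0.22 ± 0.22. Ttk, the checkpoint kinase Mps1, had negative values, -0.50 ± 0.23 and -0.08 ± 0.18, and in week 3 it was lower in 4 of 4 pairs (adjusted p = 0.124).

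**Figure D2:**
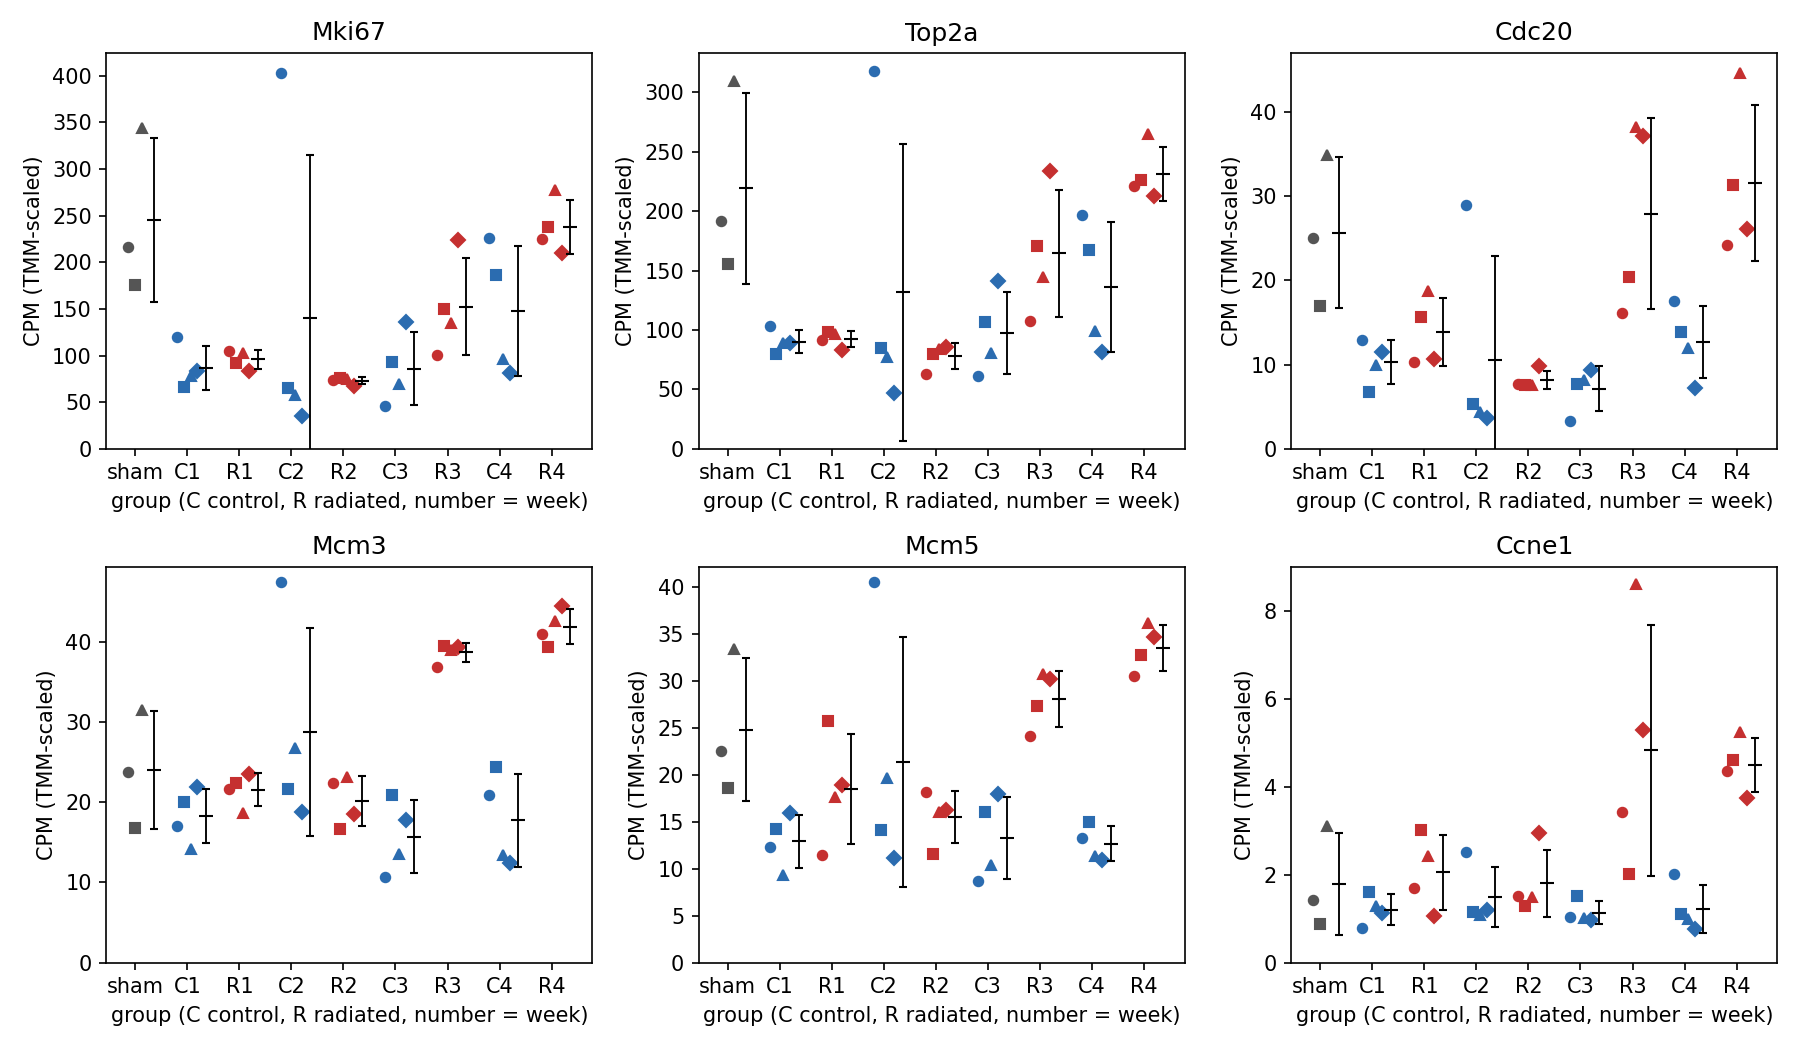
CPM of Mki67, Top2a, Cdc20, Mcm3, Mcm5 and Ccne1 (vertical axes, from 0) in each of the 35 libraries, by group (horizontal axis). Points are libraries, their shape gives the replicate number, and bars give the mean and SD, with the lower bar of control week 2 ended at 0. The single high point of control week 2 is replicate 1, at 402 CPM for Mki67, and the radiated libraries of week 4 lie above the control libraries in all panels but that of Mki67.

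Among the fork genes, Mcm3, a subunit of the helicase ring (ENSMUSG00000041859, chromosome 1, 20802968 to 20820312), was measured at 23.8, 16.7 and 31.6 CPM in sham skin. In radiated skin it had 21.6, 22.4, 18.7 and 23.5 CPM in week 1, 22.4, 16.7, 23.2 and 18.5 CPM in week 2, 36.9, 39.5, 39.0 and 39.3 CPM in week 3 and 41.0, 39.4, 42.6 and 44.5 CPM in week 4. Mcm3 was at sham levels in radiated skin of weeks 1 and 2 and above every sham library in weeks 3 and 4. Control skin had 17.0, 20.0, 14.2 and 21.9 CPM in week 1, 47.5, 21.7, 26.8 and 18.8 CPM in week 2, 10.7, 20.9, 13.5 and 17.8 CPM in week 3 and 20.9, 24.4, 13.4 and 12.5 CPM in week 4. Radiated against control skin, the log2 fold change was 1.32 ± 0.21 (SE) in week 3 (adjusted p = 0.00277) and 1.25 ± 0.20 in week 4 (adjusted p = 0.00074). The groups did not overlap in either week.

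Mcm5 (ENSMUSG00000005410, chromosome 8, 75109569 to 75128439), the subunit that shares a gate of the ring with Mcm2, had 22.6, 18.6 and 33.4 CPM in sham skin. Radiated skin had 11.5, 25.7, 17.7 and 19.0 CPM in week 1, 18.2, 11.6, 16.0 and 16.3 CPM in week 2, 24.2, 27.3, 30.7 and 30.2 CPM in week 3 and 30.5, 32.8, 36.2 and 34.7 CPM in week 4. The week 4 libraries were near the highest sham library. Control skin had 12.3, 14.2, 9.35 and 15.9 CPM in week 1, 40.6, 14.1, 19.7 and 11.1 CPM in week 2, 8.73, 16.1, 10.4 and 17.9 CPM in week 3 and 13.3, 15.0, 11.4 and 11.0 CPM in week 4. Here all week 4 control libraries were below all sham libraries. Mcm5 was higher in radiated than control skin by 1.11 ± 0.24 (SE, log2) in week 3 (adjusted p = 0.00932) and by 1.41 ± 0.12 in week 4, which was the smallest adjusted p of the members (1.66e-05).

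The other subunits of the ring had smaller fold changes. Mcm4 had 24.1, 26.8, 26.2 and 30.0 CPM in radiated and 16.2, 16.5, 12.5 and 23.8 CPM in control skin of week 3, and 33.6, 34.1, 35.6 and 34.4 against 21.6, 22.2, 20.8 and 19.8 CPM in week 4. Its log2 fold changes were 0.66 ± 0.20 (SE, adjusted p = 0.0346) and 0.71 ± 0.08 (adjusted p = 8.13e-05), and the other 19 libraries lay between 15.4 and 38.1 CPM. The radiated libraries of week 4 lay close together, at 34.4 ± 0.853 CPM (SD, n = 4). Mcm7 had 37.2, 46.0, 41.8 and 58.2 CPM against 22.0, 32.9, 25.9 and 35.5 CPM in week 3 and 48.5, 48.9, 61.5 and 47.9 against 34.9, 38.9, 34.2 and 31.7 CPM in week 4, with 0.68 ± 0.20 and 0.57 ± 0.11. The other 19 libraries of Mcm7 lay between 22.0 and 85.1 CPM. Mcm6 had the smallest change of the ring. It had 31.6, 42.0, 24.0 and 40.3 CPM in radiated and 26.6, 35.1, 25.1 and 29.2 CPM in control skin of week 3, which overlapped, and 38.9, 43.6, 39.9 and 34.4 against 32.6, 35.6, 32.5 and 28.2 CPM in week 4. Its log2 fold change was 0.27 ± 0.20 in week 3 (adjusted p = 0.333) and 0.29 ± 0.10 in week 4 (adjusted p = 0.0408), and the other 19 libraries lay between 20.4 and 68.0 CPM. Mcm2 was higher by 0.88 ± 0.26 and 0.85 ± 0.15. Whether the subunits differ from each other was not tested.

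Around the ring, Mcm10, which helps to start unwinding, was higher by 1.46 ± 0.36 (SE, log2) in week 3 (adjusted p = 0.0155) and 1.82 ± 0.27 in week 4 (adjusted p = 0.0004). GINS has 4 subunits, of which Gins1 and Gins2 are among the 44, and Gins1 was the one called. Gins1 was at 2.56, 3.03, 3.47 and 4.15 CPM in radiated and 1.13, 1.84, 0.651 and 1.66 CPM in control skin of week 3, and was higher by 1.35 ± 0.36 in week 3 and 1.17 ± 0.24 in week 4. Gins2 had -0.36 ± 0.42 in week 3 (adjusted p = 0.551) and -0.23 ± 0.23 in week 4 (adjusted p = 0.425). The other subunits had -0.02 ± 0.27 (Gins3, adjusted p = 0.971) and 0.07 ± 0.17 (Gins4, adjusted p = 0.786) in week 3, and 0.30 ± 0.17 (adjusted p = 0.179) and -0.24 ± 0.11 (adjusted p = 0.101) in week 4. Cdc45 missed the threshold in both weeks, at 0.62 ± 0.22 (adjusted p = 0.0596) and 0.38 ± 0.17 (adjusted p = 0.0991), and was higher in 4 of 4 pairs in each.

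The licensing factors Cdc6 and Cdt1, which load the ring, were higher in both weeks. The week 3 call of Cdc6 was kept in 4 alternative fits and lost in 11. Cdc6 had 7.36, 5.13, 4.19 and 6.95 CPM in radiated and 4.01, 3.28, 3.11 and 3.71 CPM in control skin of week 3, and 9.18, 7.84, 7.84 and 9.19 against 3.12, 2.83, 3.12 and 3.27 CPM in week 4. The groups were separate in both weeks. The log2 fold change of Cdc6 was 0.77 ± 0.24 (SE) in week 3 (adjusted p = 0.0415, or 0.0741 with the replicate block) and 1.47 ± 0.14 in week 4 (adjusted p = 3.2e-05), and the other 19 libraries spanned 2.73 to 11.9 CPM. Cdt1 was higher by 0.97 ± 0.26 and 1.04 ± 0.20.

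Ribonucleotide reductase makes deoxynucleotides from a large and a small subunit, and the small one had the larger fold changes, a difference that was not tested. The small subunit Rrm2, which is limiting in S phase, had 12.8, 11.7, 21.4 and 15.7 CPM in radiated and 7.43, 9.09, 6.00 and 10.3 CPM in control skin of week 3, and 17.5, 17.6, 25.6 and 20.5 against 9.79, 8.80, 8.88 and 7.84 CPM in week 4. It was higher by 0.94 ± 0.25 (SE, log2, adjusted p = 0.0221, or 0.0618 with the replicate block) and by 1.21 ± 0.15 (adjusted p = 0.000126). Its other 19 libraries lay between 4.78 and 20.1 CPM. The large subunit Rrm1 had 52.5, 51.4, 56.8 and 67.8 CPM in radiated and 54.5, 49.1, 48.2 and 67.9 CPM in control skin of week 3, and 72.6, 75.4, 80.6 and 78.7 against 71.4, 66.9, 61.2 and 57.6 CPM in week 4. Its log2 fold change was 0.08 ± 0.15 in week 3 (adjusted p = 0.715) and 0.26 ± 0.08 in week 4 (adjusted p = 0.0271, or 0.0755 with the replicate block). Rrm1 ranged from 46.7 to 89.5 CPM over the other 19 libraries. Tyms, thymidylate synthase, had 33.7, 34.7, 23.7 and 35.5 CPM against 18.3, 19.9, 19.5 and 22.4 CPM in week 3 and 33.8, 29.1, 34.1 and 31.1 against 24.6, 22.1, 19.0 and 19.4 CPM in week 4. Tyms was higher by 0.70 ± 0.16 (adjusted p = 0.0137) and 0.60 ± 0.11 (adjusted p = 0.00169), with 17.1 to 37.6 CPM in the other libraries.

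Pcna, the sliding clamp of DNA polymerase and also a p53 target, had 50.9, 49.0, 32.1 and 38.0 CPM in radiated and 50.3, 54.3, 42.4 and 63.7 CPM in control skin of week 3. In week 4 it had 49.0, 48.1, 50.8 and 44.7 against 45.4, 41.1, 37.7 and 36.4 CPM. The groups overlapped in both weeks. The log2 fold change was -0.28 ± 0.19 (SE) in week 3 (adjusted p = 0.297) and 0.27 ± 0.09 in week 4 (adjusted p = 0.0348, or 0.0611 with the replicate block), and the other 19 libraries lay between 28.7 and 63.2 CPM. Dna2, a nuclease and helicase that trims Okazaki fragments and resected ends, had 10.4, 13.9, 14.2 and 12.9 CPM against 2.84, 5.45, 3.81 and 4.80 CPM in week 3 and 11.4, 8.15, 9.34 and 11.2 against 5.19, 5.62, 4.36 and 3.96 CPM in week 4. It was higher by 1.63 ± 0.24 (adjusted p = 0.00224, the smallest of the members in week 3) and 1.08 ± 0.17 (adjusted p = 0.000635). Its other 19 libraries ranged from 2.20 to 10.5 CPM.

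The E cyclins, which activate Cdk2 at the start of S phase, had values of opposite sign. Ccne1 (ENSMUSG00000002068, chromosome 7, 38097984 to 38107534) had 1.41, 0.867 and 3.10 CPM in sham skin. Radiated skin had 1.71, 3.02, 2.44 and 1.05 CPM in week 1, 1.50, 1.29, 1.49 and 2.94 CPM in week 2, 3.43, 2.01, 8.61 and 5.30 CPM in week 3 and 4.35, 4.62, 5.24 and 3.75 CPM in week 4. Control skin had 0.791, 1.62, 1.29 and 1.14 CPM in week 1, 2.52, 1.16, 1.09 and 1.20 CPM in week 2, 1.04, 1.52, 1.02 and 0.971 CPM in week 3 and 2.01, 1.11, 0.982 and 0.769 CPM in week 4. The radiated libraries of weeks 3 and 4 were all above the control libraries of their week. The log2 fold change was 2.11 ± 0.44 (SE) in week 3 (adjusted p = 0.00851) and 1.91 ± 0.29 in week 4 (adjusted p = 0.000529). Ccne2 had 3.70, 6.11, 2.74 and 4.05 CPM in radiated and 4.91, 5.00, 4.37 and 6.91 CPM in control skin of week 3, and 6.15, 5.90, 7.88 and 5.13 against 10.0, 8.98, 7.90 and 8.11 CPM in week 4. Ccne2 was the one member called lower, at -0.47 ± 0.16 in week 4 (adjusted p = 0.0358, or 0.0677 with the replicate block), and had -0.32 ± 0.28 in week 3 (adjusted p = 0.422). In the other 19 libraries it lay between 3.92 and 10.6 CPM.

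E2f1, the transcription factor of S phase entry, had 15.0, 13.3, 14.3 and 14.4 CPM in radiated and 5.36, 10.2, 8.97 and 9.93 CPM in control skin of week 3, and 18.4, 13.2, 17.3 and 14.7 against 8.26, 9.77, 6.02 and 7.19 CPM in week 4. It was higher by 0.75 ± 0.22 (SE, log2, adjusted p = 0.0326, or 0.0655 with the replicate block) and 1.03 ± 0.18 (adjusted p = 0.000952), and ranged from 5.97 to 17.7 CPM elsewhere. Brca1, which acts in repair by homologous recombination, had 7.55, 7.74, 5.87 and 11.2 CPM against 1.40, 4.63, 1.81 and 5.54 CPM in week 3 and 13.4, 13.7, 17.0 and 12.2 against 8.41, 7.25, 4.14 and 4.69 CPM in week 4. The groups were separate in both weeks. Its log2 fold change was 1.30 ± 0.44 in week 3 (adjusted p = 0.0527, or 0.0285 with the replicate block) and 1.21 ± 0.23 in week 4 (adjusted p = 0.00191), and the other libraries spanned 2.16 to 23.2 CPM. The block also brought Bub1b and Kif11 under the threshold in week 3 (adjusted p = 0.0314 and 0.0282) and Ccna2 in week 4 (0.0437).

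In week 1, 0 of 44 members were called by edgeR's quasi-likelihood test, 6 had an unadjusted p under 0.05, all higher in radiated skin, DESeq2 called 0, and 0% of all genes were called. The largest difference in that week was that of Dna2, at 1.18 ± 0.37 (SE, log2, adjusted p = 0.245). Its lowest radiated library (7.822 CPM) and its highest control library (7.818 CPM) were almost equal. The median was 0.28 over mitosis genes and 0.08 over fork genes, beside 0.05 over all genes. In week 2, 0 members were called by edgeR, 1 had an unadjusted p under 0.05, DESeq2 called 1, and 0.00577% of all genes were called. With the replicate block 0 members were called, beside 641 of 17345 genes. The gene with the unadjusted p was Mcm6, lower in 4 of 4 pairs at -0.80 ± 0.21 (adjusted p = 0.156). Control week 2 replicate 1 decided the direction of the mitosis genes in week 2. Their median was -0.63 with it and 0.55 without it, while that of the fork genes was -0.60 with it and -0.25 without it.

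The difference between radiated and control skin was then tested for a change over the 4 weeks in 1 model of 32 libraries. It changed for 16 of 44 members, against 15.6% of all genes. By role these were 8 of 10 fork genes (Mcm2 to Mcm7, Cdc45 and Gins1), 4 of 23 mitosis genes (Ccnb1, Cdk1, Cdc20 and Tpx2), Cdt1, Tyms, Ccne1 and Brca1. Of the steps between neighbouring weeks, that from week 2 to week 3 had members called, 18 of them and all upward, against 2.81% of all genes. The number called in either direction was 5 without control week 2 replicate 1, 13 with the replicate block, and 1, 3, 0 and 14 when number 1, 2, 3 or 4 was left out in all groups. The share of all genes called at this step, in either direction, moved as well: it was 6.9% with all libraries, 3.32% without control week 2 replicate 1, 7.63% with the block, and 1.22%, 2.64%, 0.445% and 5.56% without each number. In that step Mcm3 gained 1.84 ± 0.34 (SE, log2, adjusted p = 0.00253) and Gins1 gained 1.95 ± 0.43 (adjusted p = 0.0079). From week 1 to 2 and from week 3 to 4, edgeR called 0 members, with 8 and 1 at an unadjusted p under 0.05. DESeq2 was run for the test over all weeks, where its likelihood ratio test called 22 members, 8 of them mitosis genes and 9 fork genes. Over all genes it called 3926 of 28305.

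The 4 mitosis genes are 17.4% of their 23, near the share of all genes. Their number was 8 with DESeq2 and fell in several other fits. Without control week 2 replicate 1 6 members were called, Mcm2 to Mcm6 and Gins1, and 0 mitosis genes (17 members had an unadjusted p under 0.05). Blocking on the replicate number left 9, Mcm2 to Mcm7, Gins1, Cdt1 and Tyms, and again 0 mitosis genes. Leaving out number 1, 2, 3 or 4 in all groups gave 4, 5, 2 and 10 members, of which 1, 0, 0 and 1 were mitosis genes and 3, 4, 2 and 7 fork genes. The share of all genes called fell too in these last fits, to 7.63%, 8.46%, 4.97% and 9.2%, while it was 13.5% without control week 2 replicate 1 and 15.8% with the block. Mcm3 and Gins1 were called in each of these fits.

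Radiated skin was next set against skin of sham mice, which had no radiation, to ask whether these genes were below or above the sham level. Of the 23 mitosis genes, 5 were called lower in week 1 and 13 in week 2, 4 of the 44 members were called in week 3, and in week 4 the share of members called higher was close to that of all genes. In week 1, 0 members were higher and 5 were lower, against 1.21% of all genes called lower: Mki67 (-1.37 ± 0.23, SE, log2, adjusted p = 0.0216), Top2a (-1.26 ± 0.23, adjusted p = 0.0285), Cenpf (-1.54 ± 0.22), Tpx2 (-1.32 ± 0.28) and Nusap1 (-1.33 ± 0.23). In week 2, 13 were lower, all of them mitosis genes, against 2.9% of all genes. They included Mki67 (-1.75 ± 0.23, adjusted p = 0.00826), Top2a (-1.49 ± 0.25, adjusted p = 0.0158), Cdc20 (-1.65 ± 0.27, adjusted p = 0.0141) and Cenpf (-2.13 ± 0.20, adjusted p = 0.00473). Of the 10 fork genes, edgeR called 0 in week 1 and 0 in week 2, with 2 and 5 at an unadjusted p under 0.05, and DESeq2 called 0 and 1. Mcm3 had -0.17 ± 0.24 in the first of these weeks (adjusted p = 0.785) and -0.25 ± 0.25 in the other (adjusted p = 0.59). With 3 sham libraries the counts moved with single libraries. The week 1 count was 0 without sham replicate 3 or radiated week 1 replicate 3 or 4, and 3 without radiated week 1 replicate 1. In these week 1 fits 0.306%, 0.00557%, 0.239% and 1.99% of all genes were called in either direction, against 1.75% with all libraries. The week 2 count was 2 without sham replicate 3, 3 without radiated week 2 replicate 3 and 8 without radiated week 2 replicate 2. Over all genes 5.06% were called in week 2 in either direction, and 0.583%, 1.02% and 3.14% in these fits.

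In week 3, Mcm3 (0.74 ± 0.22, SE, log2, adjusted p = 0.0484), E2f1 (0.69 ± 0.20, adjusted p = 0.0475) and Cdt1 (1.04 ± 0.30, adjusted p = 0.0459) were higher than in sham skin, against 10.4% of all genes. Nusap1 alone was lower (-1.04 ± 0.28, adjusted p = 0.0331), against 7.75% of all genes. These adjusted p-values lay close to the threshold, and 0 members were called without radiated week 3 replicate 1, 2 or 3 or sham replicate 1 or 2. In these fits 12.2%, 11.7%, 14.3%, 10.6% and 6.07% of all genes were called in either direction, against 18.2% with all libraries. In week 4, 7 members (15.9%) were higher and 0 lower, against 15.2% of all genes called higher. They were Mcm3 (0.85 ± 0.20, adjusted p = 0.0142), Mcm4 (0.84 ± 0.17, adjusted p = 0.00744), Rrm2 (0.96 ± 0.20, adjusted p = 0.00842), E2f1 (0.85 ± 0.19, adjusted p = 0.0131), Ccne1 (1.39 ± 0.40, adjusted p = 0.0339), Cdt1 (0.82 ± 0.25, adjusted p = 0.0447) and Plk1 (0.90 ± 0.27, adjusted p = 0.0413). Mki67 was at the sham level, at 0.01 ± 0.22 (adjusted p = 0.986). Without sham replicate 3 the count was 17 (38.6%), where 24.5% of all genes were called in either direction, against 26.7% with all libraries. It was 4 without sham replicate 1 or without radiated week 4 replicate 1, 3 or 4. In these fits 22.9%, 19.3%, 24.5% and 19.1% of all genes were called in either direction.

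Control skin was set against sham skin in the same way. Members were called lower at a higher share than all genes in weeks 1 and 3, while 0 members were called in week 2 and 1 in week 4. In week 1, 13 members were lower, against 1.65% of all genes: 11 mitosis genes, Mcm7 and Brca1, with Mki67 at -1.50 ± 0.27 (SE, log2, adjusted p = 0.0324). The count was 0 without control week 1 replicate 2, 3 or 4 and without sham replicate 2 or 3. In these fits 0.118%, 0.136%, 0.062%, 0% and 0% of all genes were called in either direction, against 4.92% with all libraries. In week 2, edgeR called 0 members, 2 had an unadjusted p under 0.05, DESeq2 called 1, and 2.44% of all genes were called. Without control week 2 replicate 1, 20 were lower (45.5%), 19 of them mitosis genes and 0 fork genes, and 12.5% of all genes were called in either direction. In week 3, 18 were lower, against 6.19% of all genes: 15 mitosis genes, Mcm7 (-0.83 ± 0.22), Cdc45 (-0.91 ± 0.23) and Brca1. Mki67 was at -1.52 ± 0.36 (adjusted p = 0.0322). Without sham replicate 3 the count was 0, where 3.46% of all genes were called in either direction, against 11.4% with all libraries. Without control week 3 replicate 1, 2 or 3 the count was 7, 3 and 2, where 5.35%, 4.48% and 4.18% of all genes were called. In week 4, Mcm5 alone was lower (-0.98 ± 0.22, adjusted p = 0.0483), against 1.9% of all genes. That count was 0 without control week 4 replicate 2, 3 or 4 or sham replicate 3, where 0.00562%, 0.0113%, 0% and 0.889% of all genes were called in either direction. It was 2 without control week 4 replicate 1 or sham replicate 1 or 2, where 1.76%, 9.26% and 1.54% were called, against 3.65% with all libraries.

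Hair follicle markers were also high in sham skin, and growing follicles are known to hold many dividing cells. Of the 14 hair markers, 14 were called lower than sham in radiated skin of weeks 1 and 2, 10 in week 3 and 4 in week 4. In control skin the number was 0, 2, 9 and 14 over the 4 weeks. The mean log2 CPM of the hair markers, their score, was 5.59, 8.45 and 8.94 in the sham libraries and 6.16 in control week 2 replicate 1, against -0.40, -0.33 and 2.15 in the other libraries of that group. The control libraries of week 1 had hair scores of 6.94, 0.01, 0.12 and 4.68, so that 3 of the 4 were below every sham library although 0 hair markers were called. Control week 1 replicate 1, with the score of 6.94, had a mitosis score (the same mean over the 23 mitosis genes) of 3.54, the highest of its group. The scores did not go together in every library: sham replicate 2, with a hair score of 8.45, had the lowest mitosis score of sham skin (3.81), and radiated week 4 replicate 2 had a hair score of 0.36 and a mitosis score of 4.46. The part of hair follicles in the differences from sham skin was not tested.

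**Figure D3:**
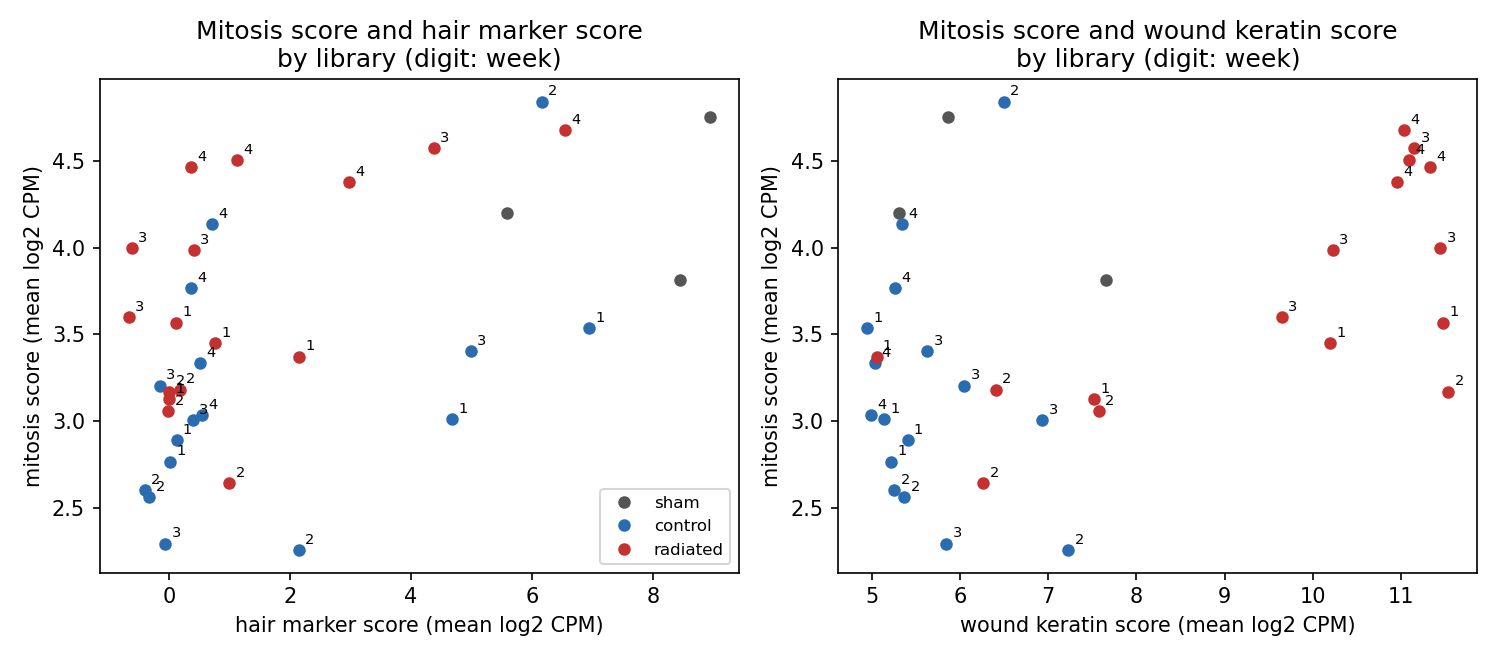
Mitosis score of each of the 35 libraries (vertical axis, mean log2 CPM over 23 genes) against the hair marker score (left, mean log2 CPM) and the wound keratin score (right, mean log2 CPM). Digits give the week and colours the kind of skin. Radiated libraries of weeks 3 and 4 lie between 3.60 and 4.68 on the mitosis score over hair scores from -0.67 to 6.54, with wound keratin scores from 9.65 to 11.44. Radiated week 1 replicates 2 and 3 and week 2 replicate 4 have wound keratin scores of 11.47, 10.20 and 11.54. Their mitosis scores are 3.57, 3.45 and 3.17.

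Replication and mitosis genes were compared through the difference of 2 scores in each library: the mean log2 CPM of the 10 fork genes minus that of the 23 mitosis genes. No test was made of this difference, since the score is a mean over chosen genes. The sham libraries had -0.29, -0.19 and -0.46. Radiated skin of week 1 had 0.00, 0.13, -0.10 and 0.46, that of week 2 had 0.21, 0.72, 0.62 and 0.25, that of week 3 had 0.28, 0.04, -0.03 and -0.37, and that of week 4 had -0.07, -0.19, -0.26 and -0.28. Relative to mitosis genes, fork genes were thus highest in week 2, and by week 4 all radiated libraries were below 0, as the sham libraries were. Control skin of week 1 had -0.12, 0.67, 0.13 and 0.69, that of week 2 had -0.09, 1.13, 1.34 and 1.01, that of week 3 had 0.59, 0.31, -0.21 and 0.16, and that of week 4 had -0.45, -0.03, -0.04 and 0.19. From week 1 to week 4 the mean of radiated skin was 0.44, 0.76, 0.29 and 0.11 above that of sham skin, and the mean of control skin was 0.65, 1.16, 0.53 and 0.23 above it. Several of these values moved with single libraries. The radiated value of week 4 was 0.041 without sham replicate 3, 0.070 without radiated week 4 replicate 1 and 0.17 without sham replicate 2, and that of week 3 was 0.19 without radiated week 3 replicate 1. The control value of week 4 was 0.14 without control week 4 replicate 4 and 0.36 without replicate 1 of that group, and that of week 2 was 1.47 without control week 2 replicate 1. From sham to radiated week 2 the mitosis score went from 4.26 ± 0.47 (SD, n = 3) to 3.01 ± 0.25 (n = 4), and the fork score from 3.94 ± 0.34 to 3.46 ± 0.14. In week 2 the mitosis mean thus lay further below its sham mean than the fork mean did. In radiated skin of week 4 they were at 4.51 ± 0.13 and 4.31 ± 0.09, both above their sham means.

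**Figure D4:**
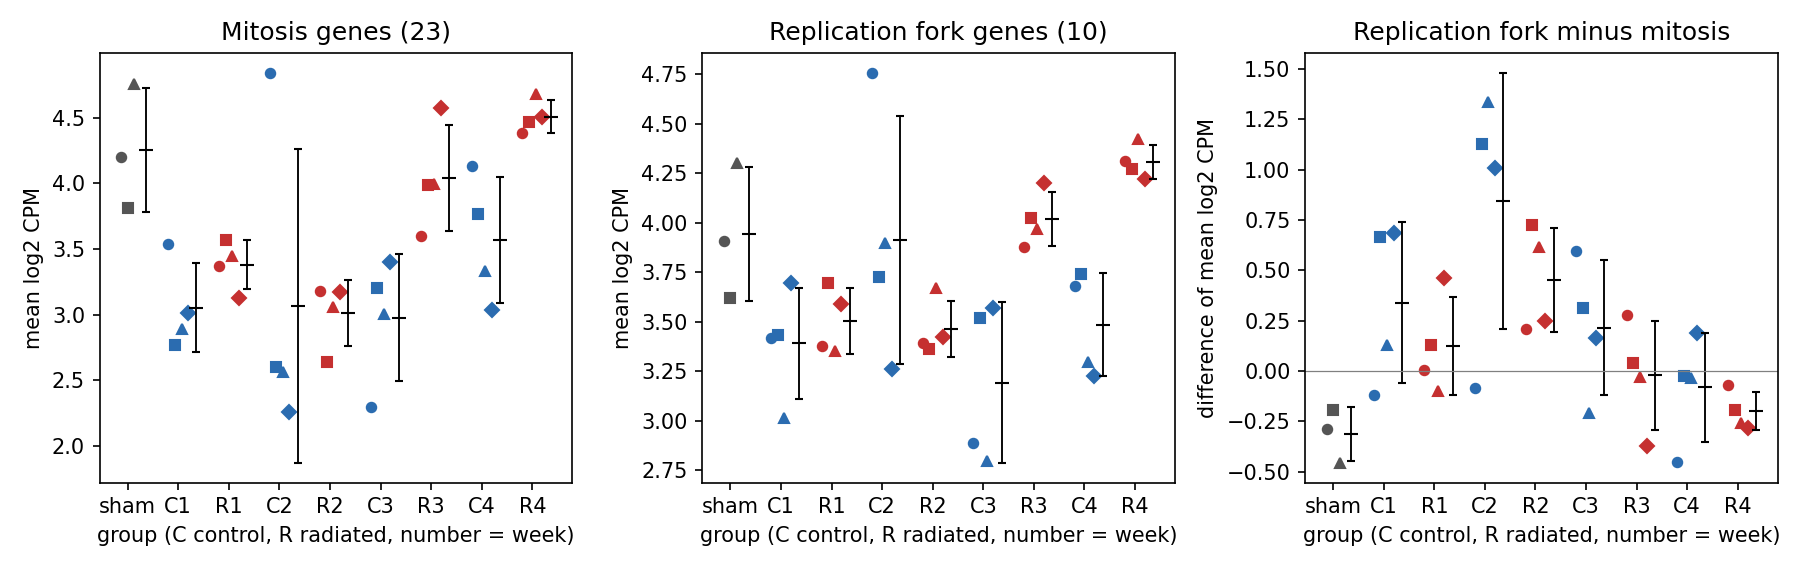
Mitosis score, fork score and their difference (vertical axes, mean log2 CPM) in each of the 35 libraries by group (horizontal axis). Points are libraries, their shape gives the replicate number, and bars give the mean and SD. The difference lies below 0 in all 3 sham libraries and above 0 in all 4 radiated libraries of week 2.

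In 35 libraries the fork and mitosis scores had a Pearson correlation of 0.81, which is a description, since the libraries share groups and mice. Among 16363 genes at 1 CPM or more on average, those most like the fork score were Uhrf1 (r = 0.95), which recruits maintenance DNA methylation to forks, Chaf1a (0.92), a subunit of the histone chaperone CAF-1, Pole (0.90), the leading-strand polymerase, Lig1 (0.90), the ligase of Okazaki fragments, and Hells (0.90), a chromatin remodeller. Those most like the mitosis score were the kinesin Kif22 (0.97), Cdca8 (0.97) and Incenp (0.96) of the chromosomal passenger complex, Racgap1 (0.96) and Cit (0.96), which act in cytokinesis.

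Other genes of the same pathways, outside the 44, were read as 3 lists. Of 35 further replication genes, 15 were higher and 1 lower in radiated than control skin of week 3, and 14 higher and 1 lower in week 4. Over all genes 13.6% were higher and 13.6% lower in week 3, and 24.2% and 24.2% in week 4, which is also the background of the list that follows. Uhrf1 was higher by 1.38 ± 0.32 and 1.18 ± 0.21 (SE, log2), Orc1, a subunit of the origin recognition complex, by 0.96 ± 0.30 (adjusted p = 0.0427, or 0.0791 with the block) and 1.68 ± 0.21, and Dbf4, the activator of the Cdc7 kinase, by 0.93 ± 0.19 and 1.22 ± 0.18. Those lower were Orc4 in week 3 (-0.44 ± 0.14, adjusted p = 0.043) and Rpa3 in week 4 (-0.55 ± 0.19, adjusted p = 0.0392), and neither was called with the block (adjusted p = 0.0789 and 0.0964). Of 42 further mitosis genes, 23 were higher and 0 lower in week 3, and 29 higher and 2 lower in week 4. Mybl2, which encodes B-Myb, was higher by 2.13 ± 0.27 and 2.39 ± 0.25, and Foxm1 by 1.47 ± 0.36 and 1.33 ± 0.30. Pttg1, or securin, and the condensin subunit Smc4 were lower in week 4, at -0.73 ± 0.16 and -0.39 ± 0.14, the latter with an adjusted p of 0.0449, or 0.0615 with the block. In weeks 1 and 2 edgeR called 0 genes of these 2 lists, and with the replicate block 1 further mitosis gene was called lower in week 2. For the further replication genes 1 and 3 had an unadjusted p under 0.05, and for the further mitosis genes 8 and 1.

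Of 26 regulators of the cycle, 25 could be tested in these weeks, and Cdkn2a fell under the filter. In week 3, 5 were higher and 4 lower (20% and 16%), near the 13.6% of all genes called in each direction. The repressors E2f7 (1.09 ± 0.23, SE, log2) and E2f8 (1.55 ± 0.37), the activator E2f2, the phosphatase Cdc25b and cyclin Ccnd3 (1.12 ± 0.29) were higher. The inhibitor Cdkn1c (-1.78 ± 0.36), the inhibitory kinase Wee1 (-1.30 ± 0.24), Ccnd2 (-1.04 ± 0.14) and Rb1 (-0.46 ± 0.13) were lower. With the block, E2f8, E2f2 and Rb1 had adjusted p-values of 0.0501, 0.0818 and 0.0617. In week 4, 9 were higher and 7 lower (36% and 28%), beside 24.2% of all genes in each direction. E2f3 (1.14 ± 0.14), E2f7 (1.25 ± 0.13) and E2f8 (1.31 ± 0.20) were among the higher, and the inhibitors Cdkn1b, or p27 (0.502 times the control level), and Cdkn2b, or p15 (-1.01 ± 0.32, adjusted p = 0.0246, or 0.0549 with the block), and Wee1 (-1.22 ± 0.17) among the lower. Cdkn1a, the p53 target that blocks cyclin-dependent kinases, had -0.33 ± 0.24 in week 3 (adjusted p = 0.339) and was lower, at -0.32 ± 0.11, in week 4 (adjusted p = 0.0291).

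Markers of several cell types also differed between radiated and control skin of weeks 3 and 4. Wound epidermis markers were high in some earlier radiated libraries too. Their mean log2 CPM was 11.47 and 10.20 in week 1 replicates 2 and 3 and 11.54 in week 2 replicate 4. The mitosis scores of these libraries were 3.57, 3.45 and 3.17. Wound epidermis markers were higher in 4 of 4 in weeks 3 and 4 (3 of 4 in week 3 with the block), and their summed level was 4516 to 14962 CPM in radiated skin of week 3 against 707 to 850 CPM in control skin, and 10049 to 13397 against 494 to 553 CPM in week 4. Of 8 leukocyte markers tested, 5 were higher in week 3, and 7 were higher and 1 lower in week 4, with summed levels of 630 to 1681 against 235 to 646 CPM and of 935 to 1428 against 184 to 231 CPM. Fibroblast markers were higher in 1 of 5 and 5 of 5. Endothelial markers were higher in 1 of 3 (0 with the block) and 3 of 3, with summed levels of 144 to 359.9 against 129.7 to 158 CPM in week 3 and 286 to 377 against 121 to 209 CPM in week 4. Melanocyte markers were higher in 0 of 4 and 3 of 4. Suprabasal keratinocyte markers were lower in 1 of 5 and 4 of 5, with summed levels of 113 to 9682 against 8112 to 11217 CPM in week 3 and 386 to 4193 against 12911 to 15929 CPM in week 4. Of 7 basal keratinocyte markers, 1 was higher and 4 lower in each week (3 lower in week 3 with the block). Skeletal muscle markers were lower in 4 of 5 in both weeks (1 of 5 in week 4 with the block), with summed levels of 2462 to 7328 against 14370 to 29081 CPM in week 3 and 879 to 2064 against 1130 to 17304 CPM in week 4. Their part in the result was not tested.

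Hair markers were also higher in radiated skin in week 4. Of 11 tested, 7 were higher in radiated than control skin of week 4, or 4 with the block. Of 10 tested in week 3, edgeR called 0, with 1 at an unadjusted p under 0.05, and 2 were lower with the block. The 4 radiated libraries of week 4 had hair scores of 2.97, 0.36, 6.54 and 1.12, and the control libraries 0.71, 0.37, 0.52 and 0.54. Without radiated week 4 replicates 1 and 3, which had the 2 highest hair scores, 29 members were called, 28 of them higher, and 39.6% of all genes were called in either direction, against 48.4% with all libraries. Of the radiated libraries kept, replicate 4 (1.12) still had a hair score above every control library of that week. In week 3 the pair numbered 4 had hair scores of 4.38 and 4.99, and 17 members were called without both of its libraries, beside 21.1% of all genes. The part of hair follicles in the counts of either week was not tested.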

How the data were processed

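Total RNA of 35 skin biopsies was sequenced in bulk. Per the submitters' processing notes, Trim Galore 0.6.7 and kallisto 0.46.2 were used with the build mm10, and per the labels' protocols DESeq2 was used by the authors; the annotation release and the step from transcripts to genes are not given in the sources used here. Deposited for each gene are kallisto's estimated counts from the authors, not scaled between libraries, and between 29.5% and 32.5% of a library's values were not whole. They were rounded here. No pair of replicates agreed within sampling noise (lowest reduced chi-square 20.0 over 51 pairs). The main tool was edgeR 4.0.16 (R 4.3.3; filterByExpr, TMM scaling, quasi-likelihood F test, Benjamini-Hochberg adjustment over all genes tested), each comparison fitted on its own groups. CPM are per 1e6 counts on TMM-scaled libraries, log2 CPM uses a prior count of 2, and a standard error is the log2 fold change divided by the square root of F. Detection floors cover counting error only, and standard errors hold the spread between libraries. DESeq2 1.42.0, other scalings, no filter, a replicate block and leaving out libraries were alternatives. Leaving out control week 2 replicate 1 alone in the test over weeks, and leaving out libraries by hair score, were chosen after seeing the data.

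Same-numbered radiated and control libraries of a week were taken as pairs because 35 libraries came from 19 mice. Their deviations from the group means correlated on average at 0.07, 0.17, 0.05 and -0.02 in weeks 1 to 4, against -0.02, -0.06, -0.02 and 0.01 for other numbers. The 44 members, the role groups and the other lists were chosen with earlier results of these data known. Levels are given for every library for Mki67, Top2a, Cdc20, Mcm3, Mcm5 and Ccne1, and for weeks 3 and 4 with the range over the other 19 libraries for the 14 other key genes. Further genes are given by fold change. Gene positions are those of GENCODE M21 on GRCm38.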

Additional observations from a re-analysis of the deposited data

Results flagged for a closer look

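In groups of 4 libraries, the highest or lowest value was compared with its neighbours by Dixon's ratio at the 95% level. Of 184 groups examined over the key genes and scores, 16 held a library that stood apart, and chance alone gives about 5%. Control week 2 held 8 of them, each with replicate 1 as the highest library: the mitosis score at 4.84, Mki67 at 402.2 CPM, Top2a at 317.4 CPM, Cenpa at 26.64 CPM, Cdc20 at 29.01 CPM, E2f1 at 17.66 CPM, Brca1 at 23.22 CPM and Ccne1 at 2.517 CPM. Among the 24 members that are not key genes, 18 stood apart in control week 2 in the same way, 16 of them mitosis genes and the others Mcm10 (11.87 CPM) and Gins1 (4.986 CPM). Mcm7 of that library was at 85.1 CPM and did not pass the criterion. Over the other 7 groups these 24 members passed it in 5 cases. Its hair marker score of 6.16 was the highest of its group, and the part of hair follicles in these values was not tested.

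The other 8 were spread over 6 groups. In control skin these were Dna2 in week 1 (highest 7.818 CPM), Cenpa and Ccne1 in week 3 (13.71 and 1.515 CPM) and Birc5 in week 4 (8.997 CPM). In radiated skin they were Cdc20 and Ccne1 in week 2 (9.807 and 2.942 CPM), Tyms in week 3, whose lowest library was at 23.69 CPM, and Mcm7 in week 4 (highest 61.47 CPM).

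For 16 members the radiated-minus-control difference was not the same in all weeks by the interaction test of edgeR's quasi-likelihood model. Among fork genes the adjusted p was 0.000592 for Mcm3, 0.000782 for Gins1, 0.00558 for Mcm4, 0.00741 for Mcm5, 0.00777 for Mcm6, 0.00901 for Mcm2, 0.0198 for Mcm7 and 0.0428 for Cdc45. Among mitosis genes it was 0.0294 for Cdk1, 0.0336 for Ccnb1, 0.0449 for Tpx2 and 0.0462 for Cdc20. It was 0.02 for Tyms, 0.0305 for Cdt1, 0.0252 for Brca1 and 0.047 for Ccne1. The 4 mitosis genes were called neither without control week 2 replicate 1 nor with the replicate block.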

How the results depend on the processing

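For single genes in single comparisons, 808 values under an alternative kept direction and side of the threshold, 193 fell short of it, 15 newly passed and 6 changed sign. The sign changes, with the range over single libraries left out, were those of Top2a in week 1 (-0.019 without control week 1 replicate 2, up to 0.11), Cdc20 in week 2 (0.22 with the replicate block), Rrm1 in week 3 (-0.0032 without radiated week 3 replicate 4, up to 0.20), and Mki67, Top2a and Cdc20 in week 2, which without control week 2 replicate 1 were at 0.48, 0.16 and 0.87 and otherwise went down to -1.26, -1.03 and -0.66. Counts of members called moved by over 1.5 times as follows. For DESeq2, the fit of all 35 libraries, the scaling and the filter, shares of all genes are not given beside them. Those counts therefore do not show whether the members alone moved. DESeq2 gave 1 for radiated against control skin in week 2, 11, 20 and 8 for radiated skin of weeks 1, 2 and 3 against sham, and 23, 1 and 7 for control skin of weeks 1, 2 and 4. One fit of all 35 libraries gave 1 and 23 for radiated against control skin in weeks 2 and 4, 2 for radiated week 1 against sham, and 5 and 0 for control weeks 1 and 4. Total-count scaling gave 2 for radiated week 3 and 0 for control week 4, and the absence of a filter gave 1 and 2. The replicate block, which against sham joins different mice, gave 0 and 2 for radiated weeks 1 and 3 and 0, 3 and 0 for control weeks 1, 3 and 4, and it gave 9 for the change over time. Of all genes, it called 126 of 18228 and 3009 of 18220 in those radiated weeks against sham. In those control weeks it called 0 of 17893, 477 of 17907 and 97 of 17925. Beside the counts given in the report, the block changed no other count of members by over 1.5 times. Without control week 2 replicate 1 the change over time held for 6. With 1 library left out in turn, counts for radiated against control skin ran from 0 to 0, 0 to 0, 15 to 26 and 29 to 37 in weeks 1 to 4, for radiated skin against sham from 0 to 6, 2 to 15, 0 to 3 and 4 to 17, for control skin against sham from 0 to 18, 0 to 20, 0 to 13 and 0 to 2, and for the change over time from 2 to 10. Total-count scaling shifted the median of all genes in week 3 from 0.08 to 0.32, with mitosis genes at 1.34 and fork genes at 1.03, so the differences beside that median changed little. Depth limits the members with few counts: the lowest in a single library were 13 for Bub1, 14 for Gins1, 15 for Mcm10, 16 for Plk1 and 17 for Ccne1.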
